A study of Mus musculus with 2 samples.

Results

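The 10 genes described here encode parts of the glucagon response of the liver and were chosen by name: the glucagon receptor (Gcgr), the cAMP phosphodiesterase Pde4b, the transcription factor CREB (Creb1) with its coactivator Crtc2 and the kinase Sik1, the membrane-bound factor CREBH (Creb3l3), the C/EBP factors Cebpa and Cebpb, and the PGC1 coactivators Ppargc1a and Ppargc1b. They were chosen with earlier results of these data known. All non-control probes whose transcript identifier belonged to 1 of these genes were used, 15 probes of the 39402 on the array. All 10 genes were among the 16342 genes measured, of 20652 named. Liver RNA came from male mice, per the methods C57BL/6J animals of about 8 to 12 weeks. In the fasting group food was withheld overnight, for 16 h by one label and for 14 to 16 h by another, and the feeding group ate after such a fast, although a label calls these mice fed ad libitum. Neither group carried a genetic change or received a drug. Each group was 1 pool of RNA from 3 livers on 1 single-colour (Cy3) array, so no difference between the groups could be tested, none has a p-value or a replicate check, and differences between mice are hidden in the pools. In bulk liver RNA, fewer cells of a type and less RNA per cell cannot be told apart.

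Glucagon is the hormone of the fasted state. Its receptor on hepatocytes raises cAMP through a stimulatory G protein, and cAMP activates protein kinase A, which phosphorylates CREB and restrains the salt-inducible kinases, so that CRTC2 can enter the nucleus and join CREB. PGC1 coactivators, C/EBP factors and CREBH then act with CREB and nuclear receptors on genes of gluconeogenesis, fatty acid oxidation and ketogenesis, while phosphodiesterases end the signal by hydrolysing cAMP. CREB binds the palindrome TGACGTCA, the cAMP response element, or a shorter form of it, TGACG.

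Upon feeding, 3 of the 10 genes were at least 2-fold lower and 0 were at least 2-fold higher. Ppargc1a was 9.58-fold lower, Ppargc1b 3.07-fold and Cebpb 2.58-fold. Among all genes measured, 4.62% were at least 2-fold lower, 3.29% at least 2-fold higher and 7.91% past 2-fold in either direction. At a threshold of 3-fold 2 of the 10 genes, Ppargc1a and Ppargc1b, were lower, against 1.9% of all genes (0.967% higher, 2.87% in either direction). At 1.5-fold the same 3 genes were lower, against 10.6% of all genes (10.5% higher, 21.1% in either direction). At their brightest probes the other 7 genes stayed within 1.5-fold: Sik1, Crtc2, Creb3l3 and Pde4b had lower values upon feeding, and Gcgr, Cebpa and, with a sign that depended on the scaling, Creb1 had higher ones. A change below 0 was thus seen in 7 of the 10 genes, and in 45.2% of all genes. Genes whose bound was set to 0, none of them among the 10, count as not below 0 in that share. The median change of the 10 genes was -0.50 on the log2 scale, against 0.0 for all genes (0.03 without bounds). For the 10 genes it ranged from -0.55 to -0.32 under the other settings tried.

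The 250 bases before the start site are shown for Ppargc1a and Cebpb. These are the genes past 2-fold with a window among those searched in the RefSeq table used here (GRCm38.p6). The window of Ppargc1a is chr5:51567726-51567975 on the minus strand and that of Cebpb chr2:167688665-167688914 on the plus strand. Each gene has 1 start site in that table, and further starts, which Ppargc1a is known to have, were not searched. Capitals mark TGACG or its reverse complement CGTCA.
Ppargc1a: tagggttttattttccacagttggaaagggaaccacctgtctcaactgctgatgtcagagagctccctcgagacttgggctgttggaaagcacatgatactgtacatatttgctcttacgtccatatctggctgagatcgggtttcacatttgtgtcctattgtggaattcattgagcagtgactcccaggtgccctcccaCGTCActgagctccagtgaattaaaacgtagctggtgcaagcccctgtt
Cebpb: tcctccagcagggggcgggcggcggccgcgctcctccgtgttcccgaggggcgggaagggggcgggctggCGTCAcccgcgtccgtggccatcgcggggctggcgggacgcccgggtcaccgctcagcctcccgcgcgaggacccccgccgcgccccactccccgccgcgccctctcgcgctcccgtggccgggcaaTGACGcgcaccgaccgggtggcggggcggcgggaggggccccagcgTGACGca
Ppargc1a had 1 short element, beginning 49 bases before the start, and Cebpb had 3, beginning 180, 53 and 7 bases before it. Windows were searched for 7 of the 10 genes, all but Crtc2, Sik1 and Ppargc1b, with 11 windows in all. Of these windows 4, 1 each of Ppargc1a, Cebpb, Pde4b and Creb3l3, held a short element. For the 10 genes, windows on 1 chromosome were left out, though the shares over all windows keep them. A gene without a window here may therefore have one in the table. The short element occurs in 17.7% of the 32817 windows of this length in the table. The full palindrome was in 0 of the 11 windows and in 1.55% of all windows. A match of 5 letters is a description and not a binding site.

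PGC1α, encoded by Ppargc1a, coactivates HNF4α, FOXO1, PPARα and the glucocorticoid receptor and is induced by CREB in the fasted liver. It was measured by 2 probes for NM_008904. The first had a processed signal, the intensity after background subtraction, of 1434 upon fasting and 135.1 upon feeding, and the second had 595.1 and 46.9. Both probes were far brighter upon fasting. After quantile normalization, which gives both arrays the same distribution of signals, the changes were -3.26 and -3.48 on the log2 scale. The error that the Feature Extraction software attaches to each spot gave an error of 0.20 for the first of these differences and 0.21 for the second. Replicate spots of probes with a like mean signal over both arrays gave an SD of 0.09 for a difference between the arrays. Upon feeding, the second probe had a normalized signal of 50.9, in the range of the dim probes, whose SD was 0.18. Only 33 of the 16342 genes were lower by a larger factor. Both signals upon feeding were modest, and under the normexp background correction, which adds an offset of 50 and so compresses changes of dim probes, the values were -2.45 and -1.87.

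PGC1β, encoded by Ppargc1b, is the related coactivator that works with SREBP1 in lipid synthesis as well as with oxidative factors. Its probe, for NM_133249, had a signal of 132.8 upon fasting and 37.3 upon feeding. The change of -1.62 had an error of 0.22 by the software and an SD of 0.18 by replicate spots of dim probes. Of all genes 1.81% were lower by a larger factor, and among the third of genes with the dimmest probes 3.86% changed as much in either direction. Under the normexp correction the change was -0.65, which is not past 2-fold, so that 2 of the 10 genes were past 2-fold in place of 3. Both PGC1 genes had lower values upon feeding in all settings tried.

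**Figure D1:**
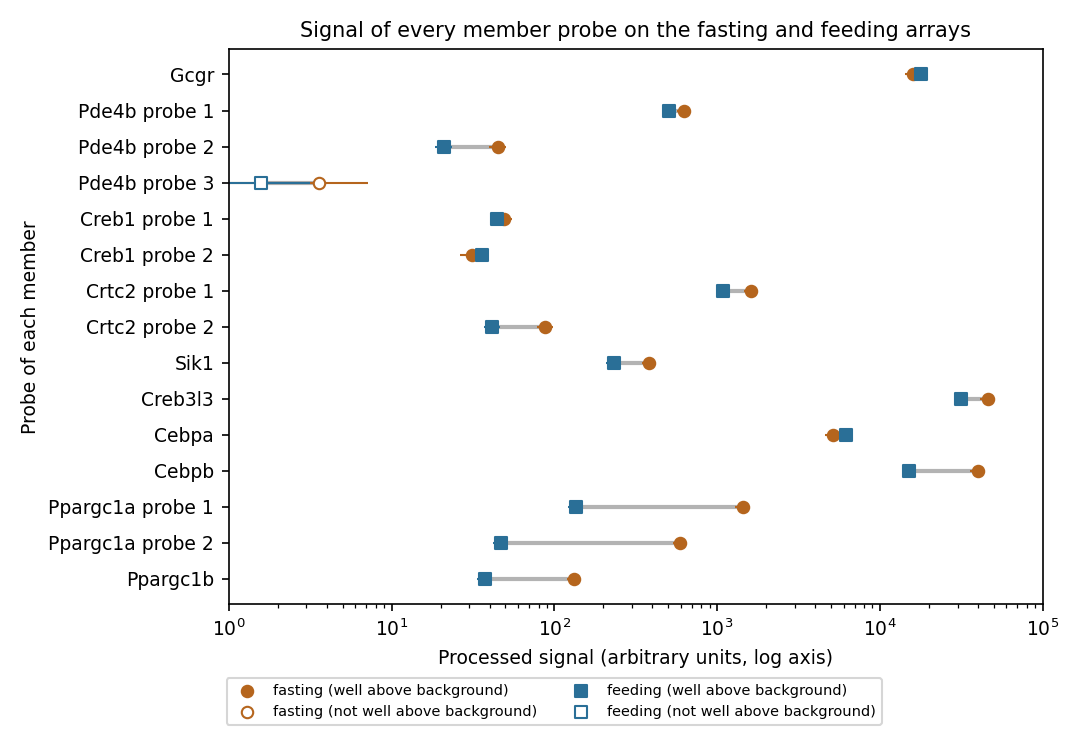
Processed signal (arbitrary units, log axis, before normalization between arrays) of the 15 probes of the 10 genes on the fasting array (circles) and the feeding array (squares), with the spot error given by the software as bars, often narrower than the symbol; open symbols were not well above background. Both probes of Ppargc1a show the widest gap, from 1434 to 135.1 and from 595.1 to 46.9, and a single Pde4b probe is drawn open for both arrays.

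C/EBPβ is a bZIP factor that cAMP and glucocorticoids induce in liver and that binds the Pck1 promoter. The Cebpb probe, for NM_009883, had a signal of 39970 upon fasting and 15136 upon feeding. The change was -1.37, with an error of 0.20 by the software and an SD of 0.08 by replicate spots of bright probes. Among the third of genes with the brightest probes, 2.96% changed as much in either direction, and 3.71% were at least 2-fold lower. The value lay between -1.40 and -1.17 in all settings tried, past 2-fold in each. The local background beside this spot was 45.0 upon fasting and 25.0 upon feeding, small against either signal.

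C/EBPα, the family member that maintains the differentiated hepatocyte, had higher values upon feeding. The Cebpa probe, for NM_007678, had signals of 5140 and 6160, a change of 0.29 against an error of 0.20. Its change was above 0 in all settings tried, with a highest value of 0.50 under scaling by the median, and 23.2% of all genes were higher by a larger factor. The values of Cebpa and Cebpb therefore lay on opposite sides of 0. The difference between their changes has no test.

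Gcgr, the G protein-coupled receptor that binds glucagon, was measured by 1 probe, for NM_008101, with a signal of 15877 upon fasting and 17819 upon feeding. The change of 0.18 was smaller than its error of 0.20 by the software and larger than the SD of 0.08 by replicate spots. It was above 0 in all settings tried, up to 0.40 under scaling by the median.

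Pde4b, a cAMP-specific phosphodiesterase, had 3 probes, all for NM_019840, and they differed. The brightest had signals of 629.6 and 507.5, with a change of -0.18 and an error of 0.20. The second had 45.0 upon fasting and 21.1 upon feeding, a change of -0.90 with an error of 0.24, and the third gave no signal well above background. The local background beside the spot of the second probe was 40 upon fasting and 22 upon feeding, and its change was -0.22 under the normexp correction. The part of background in this difference between probes was not tested. The mean over the measured probes was -0.54.

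Creb1, the factor that protein kinase A phosphorylates, was dim on both of its probes for NM_009952. One had a signal of 49.3 upon fasting and 44.7 upon feeding, and the other 31.2 and 36.0. The changes after normalization were 0.08 and 0.42, with errors of 0.23 and 0.27. For the brighter probe the sign depended on the scaling, with -0.03 under scaling by the 75th percentile, -0.01 under the normexp correction and -0.14 without scaling, so no direction is given for Creb1. Phosphorylation of the protein is not seen on an expression array.

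CRTC2 is the coactivator that joins CREB once it is dephosphorylated. Its gene was measured by 2 probes for NM_028881. The brighter had a signal of 1620 upon fasting and 1095 upon feeding, a change of -0.50 with an error of 0.20. The dimmer had 88.0 and 41.5, a change of -0.86 with an error of 0.22, and -0.32 under the normexp correction. Both probes had lower values upon feeding in every scaling tried, and neither was past 2-fold after quantile normalization, although the dimmer had -1.08 without scaling. Of all genes 13.0% were lower by a larger factor than the brighter probe.

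SIK1 is a kinase that phosphorylates CRTC2 and keeps it in the cytoplasm, and its own gene is a CREB target. The Sik1 probe, for NM_010831, had a signal of 382.9 upon fasting and 231.2 upon feeding. The change of -0.56 had an error of 0.20 and an SD of 0.09 by replicate spots. It ranged from -0.73 to -0.41 over the settings, and 11.1% of all genes were lower by a larger factor. Beside the spot of Sik1 the local background was 36.5 upon fasting and 19.0 upon feeding.

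CREBH, encoded by Creb3l3, is a liver and intestine factor released from the membrane by proteolysis, which acts with PPARα on Fgf21 and on apolipoprotein genes. Its probe, for NM_145365, had a signal of 46055 upon fasting and 31727 upon feeding. The change was -0.50 with an error of 0.20, and it lay between -0.54 and -0.30 in all settings tried. Crtc2, Sik1 and Creb3l3 were thus lower by factors of 1.42, 1.48 and 1.41, each over 2 times its error by the software, and between 11.1% and 13.2% of all genes were lower by a larger factor than each of them. None of these 3 probes reached 1.5-fold after quantile normalization. Sik1 passed it with -0.62 under scaling by the 75th percentile and -0.73 without scaling, and Crtc2 passed it on its dimmer probe and, with -0.68, as the mean of its probes.

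**Figure D2:**
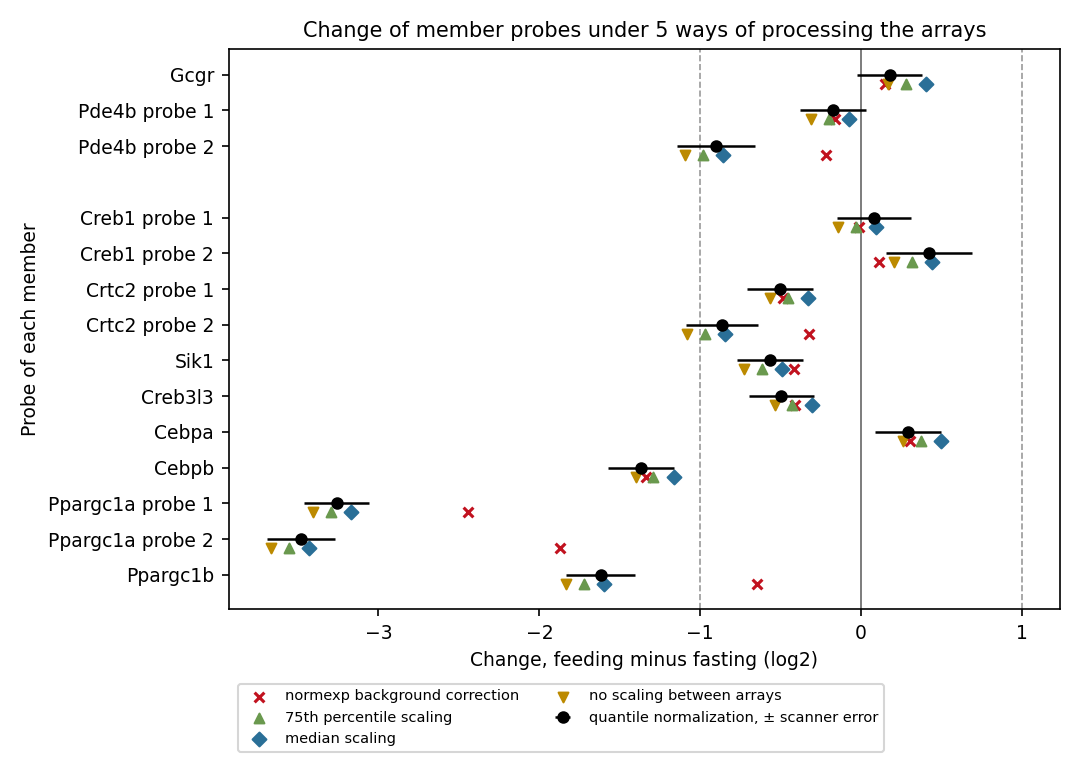
Change upon feeding (log2, feeding minus fasting) of the 14 probes well above background on both arrays, as black points with the software's error of the difference as bars after quantile normalization, and as coloured symbols under 4 other ways of processing; dashed lines mark 2-fold. Ppargc1a and Cebpb are past 2-fold in each, whereas Ppargc1b moves from -1.62 to -0.65 under the normexp correction.

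**Figure D3:**
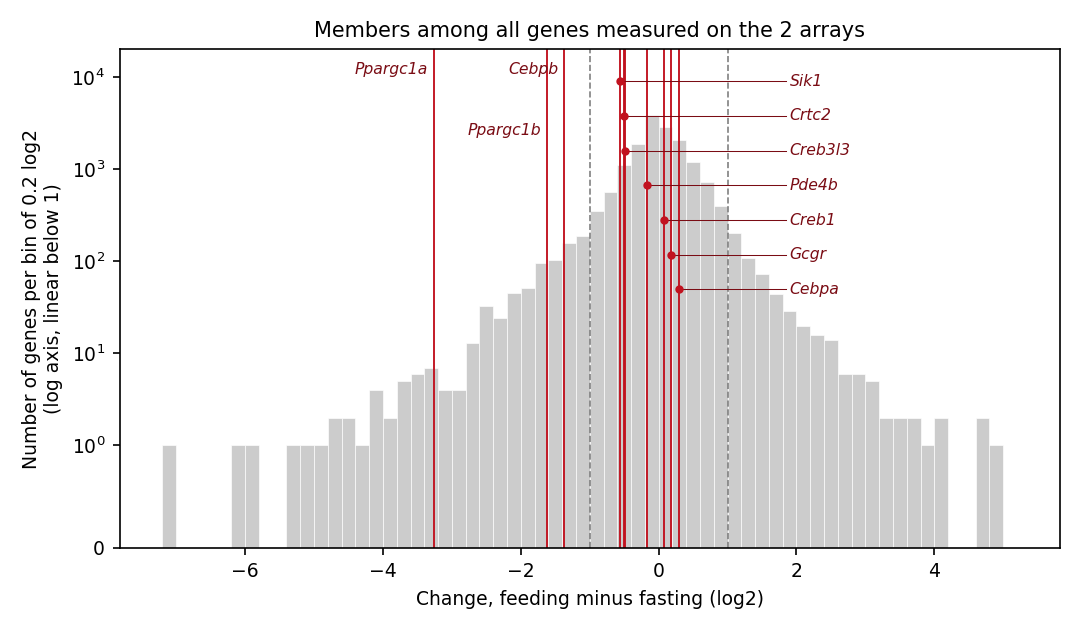
Number of genes (log axis, linear below 1) by change upon feeding (log2, bins of 0.2) for the 16342 genes measured, with the 10 genes as red lines and 2-fold as dashed lines. Ppargc1a lies at -3.26, where 33 genes were lower still, and the 7 genes within 2-fold lie between -0.56 and 0.29.

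Other genes of the pathway were counted in the same way, at the probe with the highest mean signal of each gene, against the 7.91% of all genes past 2-fold. The lists were chosen with earlier results of these data known, so their counts are descriptions only. Among 18 measured genes for G proteins, adenylyl cyclases, cAMP sensors and related receptors, 3 were at least 2-fold lower and 1 higher (median -0.21). Rapgef4, which encodes the cAMP sensor EPAC2, changed by -1.56, and Adrb1, the β1-adrenergic receptor, by -1.54 (-0.96 under the normexp correction, not past 2-fold), while its second, dim probe changed by 0.03. Adcy5, an adenylyl cyclase, was not well above background upon fasting and was at least 12.3-fold higher upon feeding on 1 probe, or 3.62 on the log2 scale, and by 1.23 on that scale under the normexp correction. The bound was taken against the lowest signal on that array that the software called well above background. A second Adcy5 probe, well above background on both arrays, changed by 0.02, and the remaining probe gave no measurable difference, so the probes disagree. Among 19 genes for protein kinase A subunits, anchors and inhibitors 1 was lower and 0 higher (median -0.02). This was Prkaca, the catalytic subunit α, at -1.35, and at -0.56 under the normexp correction.

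Among 16 other phosphodiesterase genes 2 were lower and 1 higher (median -0.19). Pde4d changed by -1.37 on its brighter and -0.69 on its dimmer probe, or by -1.0 and -0.15 under the normexp correction, neither past 2-fold. Pde7b changed by -1.35 on a dim probe (-0.23 under the normexp correction), and Pde9a, which hydrolyses cGMP, by 1.14. Among 22 other genes of CREB family factors, their coactivators and kinases, which include Crem, Atf1, Crtc1, Crtc3, Sik2, Sik3, Crebbp and Ep300, 0 were past 2-fold in either direction (median -0.04, from -0.91 to 0.72). The sign of this median and of that for protein kinase A depended on the scaling.

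Among 8 other C/EBP family members and partner genes 3 were lower and 1 higher, with a median of 0.06, or -0.04 without scaling. Cebpd, which encodes C/EBPδ, changed by -2.14, from a normalized signal of 6858 upon fasting to 1556 upon feeding. Ddit3, which encodes CHOP, a C/EBP partner that blocks binding to classical C/EBP sites, was higher by 2.24, from 312.2 to 1475. Nfil3, a bZIP repressor, changed by -1.19, and by -0.99 under scaling by the median, which is not past 2-fold. Among 20 genes for partners and modifiers of PGC1 1 was lower and 1 higher (median 0.06). Foxo1, the insulin-inhibited factor that PGC1α coactivates, changed by -1.12 and -1.16 on its probes, or -0.92 on the first under scaling by the median. Prmt1, an arginine methyltransferase that modifies PGC1α, was higher by 1.18 on its brighter probe and 0.92 on the other.

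Among 20 measured hepatic target genes of CREB and PGC1, 12 were at least 2-fold lower and 0 higher (median -1.39). This list too was chosen with earlier results of these data known, so the count is no independent evidence about the pathway. Igfbp1, an IGF binding protein, changed by -4.33, from a normalized signal of 96454 upon fasting to 4811 upon feeding. Pck1, which encodes the gluconeogenic enzyme PEPCK, was 7.72-fold lower and Nr4a1, an orphan nuclear receptor gene induced by cAMP, 5.51-fold. The median of this list lay between -1.55 and -1.07 under the settings tried. Many of these genes also respond to insulin and glucocorticoids, and the arrays do not separate these inputs. Among 12 target genes of CREBH 3 were lower and 0 higher (median -0.39). Apoa5, an apolipoprotein of triglyceride clearance, changed by -1.53 and Acot1, an acyl-CoA thioesterase with close paralogs that a probe may not separate, by -1.33. Fgf21, the fasting hormone of the liver, changed by -1.0 on a probe with normalized signals of 175.0 and 87.3, and by -0.43 under the normexp correction.

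**Figure D4:**
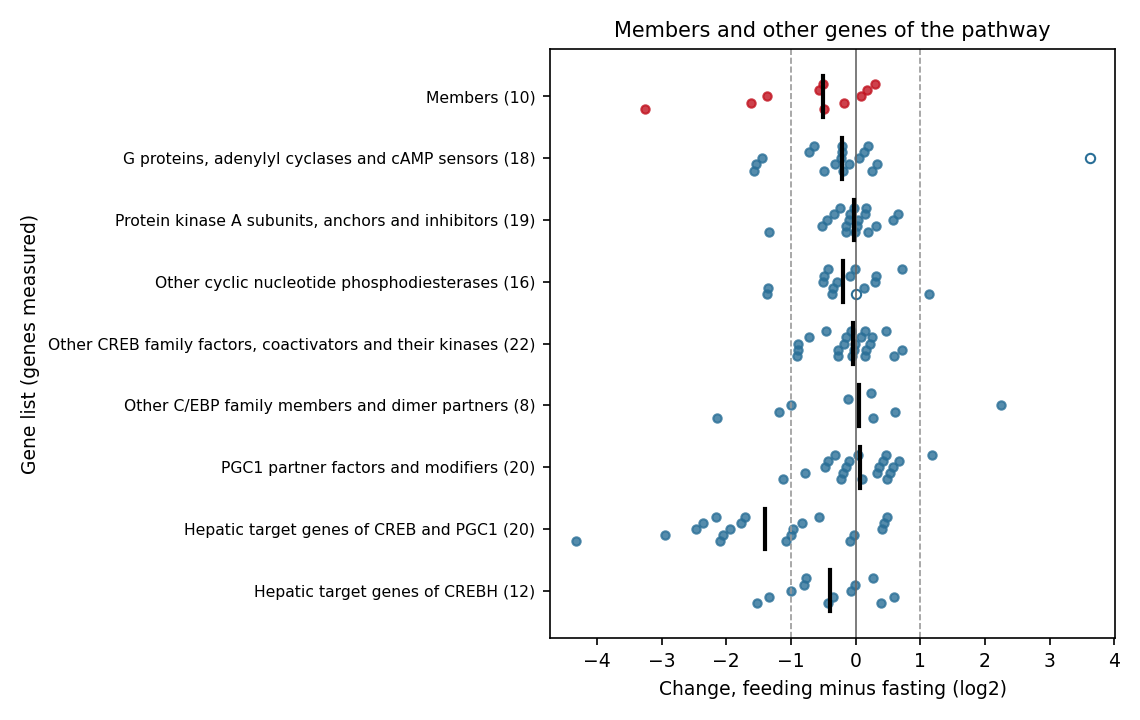
Change upon feeding (log2, feeding minus fasting) of each measured gene in the 10-gene set (red) and in 8 lists of other pathway genes (blue), with the number of genes measured in brackets, the median as a black bar, 2-fold as dashed lines and open circles for bounds. The target genes of CREB and PGC1 have a median of -1.39, and the other lists have medians between -0.39 and 0.06. The lists were chosen with earlier results of these data known.

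As a check of the tissue, 9 of 10 hepatocyte markers were measured, including Alb and Ttr, and all 9 stayed within 2-fold, with summed signals of 19.85 upon fasting and 19.82 upon feeding on the log2 scale. Summed signals of the other cell types changed by -0.30 for 9 Kupffer cell and leukocyte markers (0 past 2-fold), -0.38 for 6 endothelial markers (1 lower) and -0.37 for 6 stellate cell and fibroblast markers (1 lower). They changed by -0.04 for 4 of 6 red blood cell markers (0 past 2-fold) and -0.14 for 7 of 8 pancreas markers (1 lower and 1 higher). For 6 cholangiocyte markers the sum changed by 0.29 (1 higher), although their median was -0.07. The 1 higher marker went from a normalized signal of 376.7 upon fasting to 1625 upon feeding. By median, the endothelial markers changed by -0.38 and the stellate cell and fibroblast markers by -0.53. Crtc2, Sik1 and Creb3l3 changed by -0.50, -0.56 and -0.50. The part of other cell types in the changes of these 3 genes was not tested. The software called 63.1% of the spots for transcripts on the fasting array, and 72.3% on the feeding array, well above background, and the median local background was 30 on the former and 22 on the latter.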

How the data were processed

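Per the methods and the file headers, the authors labelled total liver RNA with Cy3, hybridised it to the Agilent 4x44K Whole Mouse Genome array and read the spots with Feature Extraction 11.0.1.1. The deposited values are intensities per spot, background-subtracted and not normalized between arrays; the deposited value table equals the mean of the local background (median in all other uses here) at all 44397 spots of both arrays, to a relative tolerance of 1e-06, and was not used as expression. Control spots and outlier spots (123 upon fasting, 98 upon feeding) were left out, log2 intensities were averaged per probe and quantile normalized as in the methods, and genes were called at 2-fold. A gene was measured if its brightest probe passed the software's test against background upon fasting or upon feeding. Where it passed on 1 array only, the change is a bound, set to 0 if the bound had the wrong sign. Probes were named by RefSeq transcript in the GRCm38.p6 table (27218 of 39402 matched). The array design names mm9, so probes and genes are given no coordinates, and those of the 2 promoter windows are the GRCm38.p6 table's own.

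The error of a difference combines the software's spot errors of both arrays. Except at dim spots this error was close to a fixed share of the signal, so its multiples mostly restate the size of a change. For Cebpb it was 3997 on a signal of 39970 upon fasting and 1514 on 15136 upon feeding. The SD of replicate spots, in 3 classes of signal, comes from 284 probes with at least 8 spots. Both cover the array only. The number of arrays, 1 per group, limits the precision. Named genes are the 10 genes with all probes and up to 3 genes past 2-fold per pathway list; the closing section also gives the other measured genes of the CREB and PGC1 target list, added after the values were seen. Genes and lists were chosen with earlier results of these data known. Alternatives were scaling by the 75th percentile, by the median or not at all, normexp with offset 50 on the median signal (limma 3.58.1, R 4.3.3), the mean of probes, other filters, no bounds, and thresholds of 1.5-fold and 3-fold. The procedure was tested on simulated data. No set test was run.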

Additional observations from a re-analysis of the deposited data

How the results depend on the processing

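No paired analysis was possible because each group had 1 array. The number of the 10 genes at least 2-fold lower stayed between 2 and 3 in all settings. Directions of single genes were kept in all settings for 9 of the 10, and Creb1 was the exception. With a threshold of 1.5-fold, the numbers lower and higher became 5 lower for G proteins and cyclases, 1 higher for protein kinase A, 2 higher for phosphodiesterases, 4 lower and 2 higher for other CREB family genes, 2 higher for C/EBP partners, 2 lower and 2 higher for PGC1 partners, and 5 lower and 1 higher for CREBH targets. These lists hold, in that order, 18, 19, 16, 22, 8, 20 and 12 measured genes. At 1.5-fold 10.6% of all genes were lower and 10.5% higher. With 3-fold the numbers became 0 lower for G proteins, 0 lower for protein kinase A, 0 lower and 0 higher for phosphodiesterases, 1 lower for C/EBP partners, 0 lower and 0 higher for PGC1 partners and 0 lower for CREBH targets. At 3-fold 1.9% of all genes were lower and 0.967% higher. Scaling by the median left 1 lower C/EBP partner and 0 lower PGC1 partners. Without scaling 1 other CREB family gene was lower. The normexp correction left 1 lower gene for G proteins, 0 for protein kinase A and 0 lower phosphodiesterases. With the mean of probes 5 CREBH targets were lower, and with genes well above background on both arrays 0 genes for G proteins were higher. All other counts, 154 of 180, stayed within 1.5 times or were 0 both times. The causes were not tested, except that stricter or looser thresholds call fewer or more genes by construction. Over all genes, the normexp correction left 215 higher and 312 lower, against 537 and 755, and scaling by the median gave 717 higher and 648 lower; without lower bounds 876 were higher and 759 lower, without scaling 389 and 978, and without a filter on dim probes 838 and 1185. Signal over background limits the reading of dim probes, among them those of Creb1, Pde4b and Ppargc1b.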

Other observations

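The rest of the measured target genes of CREB and PGC1 are given here with their changes upon feeding on the log2 scale; they were added after the values were seen, with no test. Past 2-fold were, besides Igfbp1, Pck1, Nr4a1 and Fgf21, the rapidly induced genes Dusp1 (-2.09), Fos (-2.05) and Per1 (-1.95), and Pdk4, which encodes an inhibitory kinase of pyruvate dehydrogenase (-2.36). Slc25a25, a mitochondrial ATP-Mg carrier gene, changed by -2.15 and -2.12 on its probes. G6pc, the glucose-6-phosphatase gene, changed by -1.77 and Sds, the serine dehydratase gene, by -1.72. Cpt1a, the carnitine palmitoyltransferase gene of fatty acid oxidation, changed by -1.07 on its brighter and -1.68 on its dimmer probe, with -0.86 on the brighter under scaling by the median. Within 2-fold were Tat, the tyrosine aminotransferase gene (-0.97, and -1.02 under the normexp correction), and Nr4a2, a rapidly induced orphan receptor gene (-0.84). Acadm, a medium-chain acyl-CoA dehydrogenase gene, changed by -0.56. Tfb1m, a mitochondrial rRNA methyltransferase gene, changed by 0.48, Cycs, which encodes cytochrome c, by 0.44, and Alas1, the first enzyme of heme synthesis, by 0.41. Tfb2m, a mitochondrial transcription factor gene, changed by -0.03 and Pcx (Pc in the target list), which encodes pyruvate carboxylase, by -0.08. The sign of both depended on the scaling, with 0.17 and 0.14 under scaling by the median.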
